A study of Homo sapiens with 9 samples.

Results

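The fibroblast growth factor (FGF) genes described here were the receptors FGFR1, FGFR2, FGFR3 and FGFR4, the ligands FGF2, FGF4 and FGF13, and the Sprouty feedback genes SPRY1, SPRY2 and SPRY4. These 10 genes, of 34623 distinct gene or transcript names on the array, were read by 15 of its 42405 probes, with 2 probes each for FGFR1, FGFR2, FGFR3, FGF2 and SPRY4. FGFR1 was chosen from its differences between exposed and control cells, because its 2 probes moved in opposite directions in these data, and the other genes were added as its family, ligands and feedback inhibitors. The differences of these 15 probes are therefore given as a description, and the p-values counted for them below are no test of the set. NT2 cells, which come from a human embryonal carcinoma and form neuron-like cells under retinoic acid, had been kept in 10 μM retinoic acid for 4 days (96 h) in every group. The 3 control arrays came from cells with retinoic acid alone, the 3 paraoxon arrays from cells that also received 1 μM paraoxon, and the 3 mipafox arrays from cells that also received 5 μM mipafox. Paraoxon and mipafox are organophosphates, of which mipafox is the one known for delayed neuropathy, and since their doses differed their values are set side by side and not compared. All cells were of this single line, and what was measured was RNA of whole cultures.

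FGFs are secreted proteins that bind receptor tyrosine kinases together with heparan sulfate chains of the cell surface. The bound receptors pass the signal through adaptor proteins to RAS and the MAP kinases, which switch on transcription factors of the ETS family and also the genes of their own inhibitors, among them the Sprouty proteins. FGF2 is a standard supplement for keeping human pluripotent cells undifferentiated, and FGF signalling takes part in the formation of neural tissue from them. FGF13 belongs to a subgroup that is kept inside the cell and acts on sodium channels and microtubules.

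The letters A, B and C name the arrays of each group, and values of a group are given in that order. The sample labels call them biological replicates and the study's methods call them technical replicates, so that the spread between arrays may be technical. The control arrays were on slide 1 together with mipafox A, and all paraoxon arrays were on slide 2 together with mipafox B and C. Paraoxon and slide can therefore not be told apart. The 75th percentile of the processed signal, to which each array was scaled, ranged from 802 to 1590, and the share of probes well above background from 65.7% to 73.6%. Paraoxon C and mipafox A had the lowest values of both. Of the marker lists, 10 of 10 embryonal carcinoma genes, 12 of 13 retinoic acid response genes, 7 of 10 neural progenitor genes and 7 of 10 neuron genes were well above background on all 9 arrays. The same held for 3 of 5 astrocyte genes, 2 of 8 mesoderm or endoderm genes and 5 of 7 fibroblast genes, while the astrocyte gene GFAP and the mesoderm gene T were above background on no array. All 15 probes of the FGF genes were well above background on all 9 arrays.

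The probes read different stretches of their genes, and 4 of those in coding sequence are printed because their values are described below. The FGFR4 probe (hg19, chr5:176523121-176523180, plus strand) covers the activation loop of the kinase, with the codons of its Asp-Phe-Gly motif in capitals. The FGFR2 probe A_24_P206624 (chr10:123243217-123243276, minus strand) reads the end of the kinase domain. The FGF4 probe (chr11:69588129-69588188, minus strand) and the SPRY4 probe A_33_P3338423 (chr5:141694487-141694546, minus strand) read coding sequence of their genes.
FGFR4: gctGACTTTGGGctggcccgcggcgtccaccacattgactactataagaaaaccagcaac
FGFR2 A_24_P206624: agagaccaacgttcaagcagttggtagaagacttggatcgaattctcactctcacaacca
FGF4: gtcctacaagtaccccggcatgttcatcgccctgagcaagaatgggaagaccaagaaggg
SPRY4 A_33_P3338423: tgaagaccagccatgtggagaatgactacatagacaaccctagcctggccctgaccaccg

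The 2 FGF2 probes (chr4:123819317-123819376 and chr4:123819331-123819390, plus strand) lie close to the end of the listed transcript and share 46 of their 60 bases. Each has 14 bases of its own, printed here in capitals because the probes gave different values.
FGF2 A_33_P3379886, first 14 bases: TTTTATGTAAAAAT
FGF2 A_33_P3419696, last 14 bases: TTTTCTTGTCTCCC

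FGFR1 gave a lower signal at its upstream probe and a higher signal at its downstream probe in exposed cells. The upstream probe A_23_P372923 (chr8:38314973-38315032, minus strand) starts at base 194 of the transcript on which the files place it, and the downstream probe A_23_P301304 (chr8:38270470-38270529) at base 4027 of another. The probes lie 44503 bases apart in the gene, and each is listed with 4 transcripts, of which 1 is shared. All values are log2 processed signals minus the 75th percentile of the array. The upstream probe read 0.17, -0.09 and -0.09 in control cells, -0.62, -0.97 and -1.26 with paraoxon, and -0.53, -0.67 and -0.80 with mipafox. All 6 exposed arrays were below the 3 control arrays. The difference from control was -0.95 (SE 0.18), a 1.93-fold lower signal, with paraoxon and -0.67 (SE 0.18), 1.59-fold lower, with mipafox. Of the 29134 probes tested, 3.33% had a larger absolute difference with paraoxon and 4.41% with mipafox.

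The downstream FGFR1 probe went the other way. It read 2.65, 2.75 and 2.78 on the control arrays, 3.08, 3.07 and 3.39 with paraoxon, and 3.02, 3.30 and 3.28 with mipafox, so that again the groups did not overlap with control. The difference was 0.45 (SE 0.15), 1.37-fold higher, with paraoxon and 0.47 (SE 0.15), 1.39-fold higher, with mipafox. Of the probes tested, 18.6% had a larger absolute difference with paraoxon. Within slide 1, mipafox A differed from the control mean by -0.53 at the upstream probe and by 0.30 at the downstream probe. The upstream difference was -0.74 (SE 0.33) for paraoxon and -0.53 (SE 0.26) for mipafox with slide as a block in the fit. The downstream differences became 0.19 (SE 0.24) and 0.30 (SE 0.19). These blocked values rest on mipafox A, the only exposed array on the slide of the controls. For mipafox the blocked difference is that of mipafox A from the control mean, here and below, and is no second check.

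**Figure D1:**
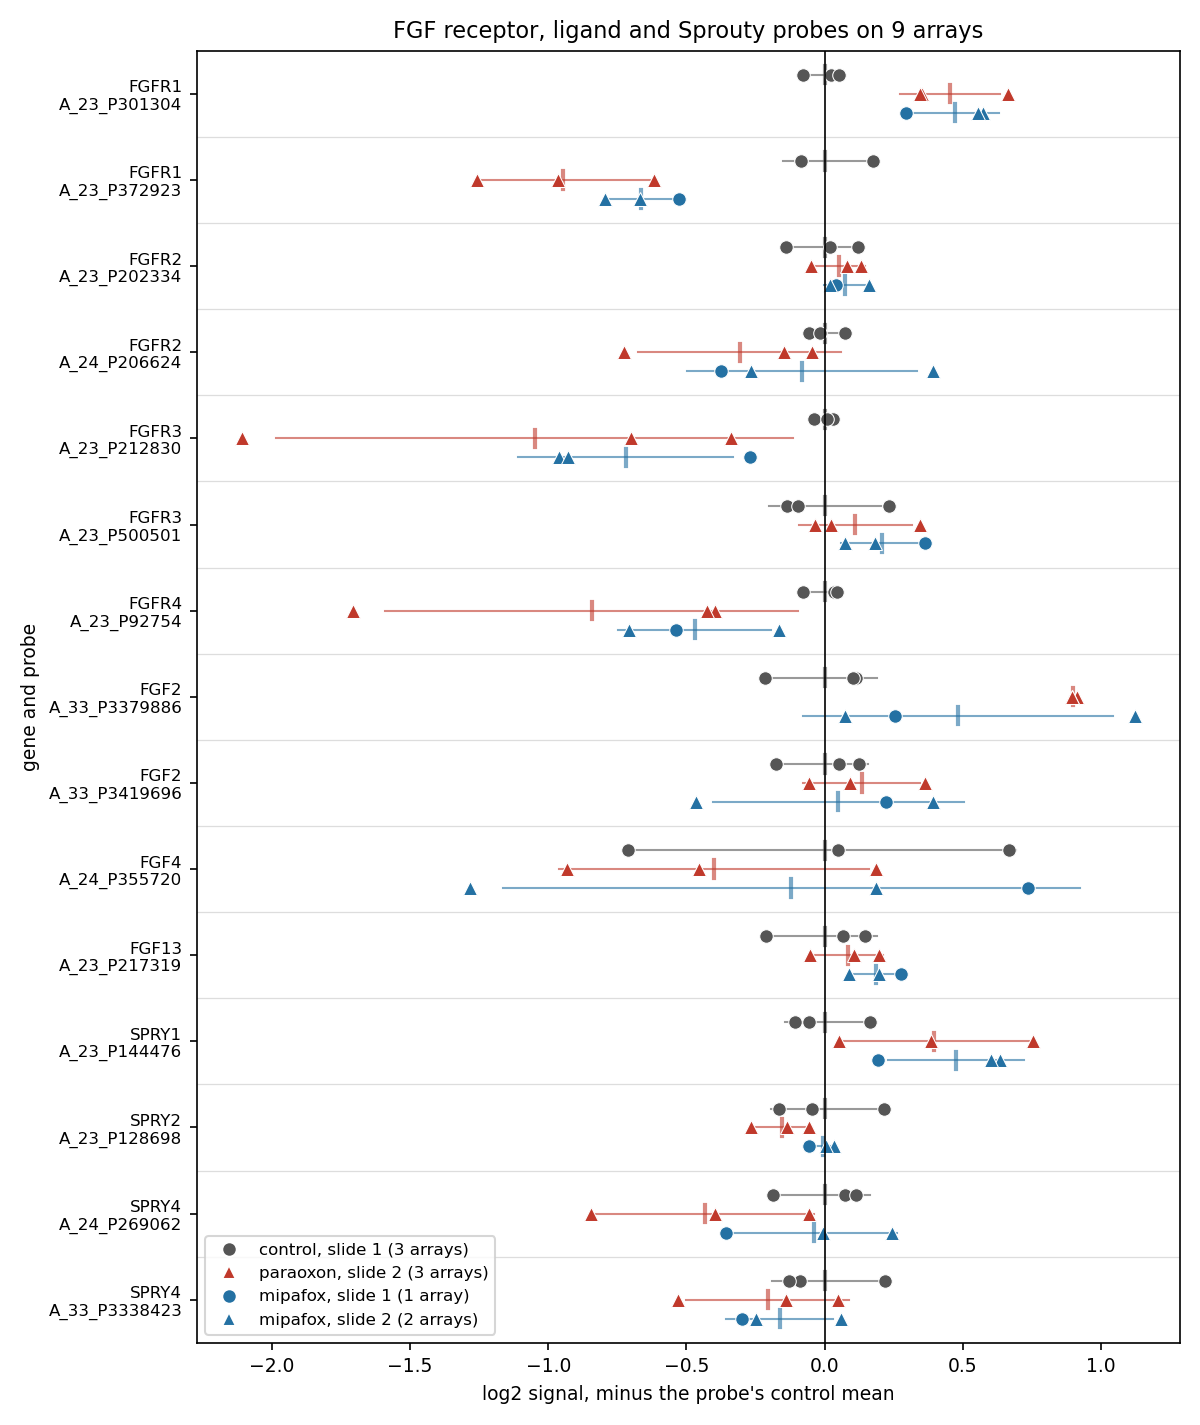
Log2 signal of the 15 probes on the 9 arrays, minus each probe's control mean (horizontal axis), by gene and probe (vertical axis). Colours give the treatment, shapes the slide, vertical ticks the group means and horizontal lines 1 SD to either side (n = 3 arrays). The 6 exposed arrays lie on opposite sides of the controls for the 2 FGFR1 probes, and paraoxon C lies far from paraoxon A and B for the FGFR3 probe A_23_P212830 and for FGFR4.

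FGFR3 also had an upstream probe that was lower and a downstream probe that was not. The upstream probe A_23_P212830 (chr4:1809054-1809113, plus strand) starts at base 2741 of the listed transcript and the downstream probe A_23_P500501 (chr4:1810363-1810422) at base 4050 of the same transcript. The upstream probe read -2.23, -2.30 and -2.25 on the control arrays, -2.60, -2.96 and -4.37 with paraoxon, and -2.53, -3.22 and -3.19 with mipafox. The 6 exposed arrays were all below the controls, and paraoxon C was the lowest by far. The difference was -1.05 (SE 0.40) with paraoxon and -0.72 (SE 0.40) with mipafox. Without paraoxon C the paraoxon difference was -0.52. With slide as a block these values were -0.37 (SE 0.71) and -0.27 (SE 0.56). The downstream probe read 3.03, 2.66 and 2.70 in control, 2.76, 2.82 and 3.14 with paraoxon and 3.16, 2.98 and 2.87 with mipafox. These ranges overlapped, and the differences were 0.11 (95% interval -0.26 to 0.49) and 0.21 (-0.16 to 0.59).

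FGFR4 was measured by its single kinase probe printed above. It read -1.10, -1.21 and -1.09 on the control arrays, -1.53, -1.56 and -2.84 with paraoxon, and -1.67, -1.84 and -1.30 with mipafox. The exposed arrays were again all below the controls, with paraoxon C the lowest. The difference was -0.84 (SE 0.33), 1.79-fold lower, with paraoxon and -0.47 (SE 0.33), 1.39-fold lower, with mipafox. Without paraoxon C the paraoxon value was -0.41. Within slide 1, mipafox A differed from the control mean by -0.54, which is also the mipafox value with slide as a block (SE 0.49). The paraoxon value with slide as a block was -0.95 (SE 0.62).

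FGFR2, the receptor with splice forms that differ between epithelia and mesenchyme, overlapped between groups at both probes. The probe A_24_P206624 printed above read -0.55, -0.68 and -0.64 on the control arrays, -0.77, -0.67 and -1.35 with paraoxon, and -1, -0.89 and -0.23 with mipafox. The difference was -0.31 (95% interval -0.85 to 0.24) with paraoxon and -0.08 (-0.63 to 0.46) with mipafox. The other probe, A_23_P202334, starts downstream at base 4155 of the same transcript, and the files place only 14 of its 60 bases (chr10:123237830-123237843). It lay between 2.55 and 2.85 on all 9 arrays, with differences of 0.05 (SE 0.13) and 0.07 (SE 0.13).

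In all 3 receptors with 2 probes, FGFR1, FGFR2 and FGFR3, the mean difference was below 0 at the upstream probe and above 0 at the downstream probe, with either compound, although the small FGFR2 differences changed sign when control A, mipafox A or mipafox B was left out or the arrays were weighted, and the downstream FGFR3 difference with paraoxon was at 0.00 without paraoxon C. The gap between the probes, upstream minus downstream and relative to the control mean, was 0.25, -0.11 and -0.14 for FGFR1 on the control arrays. It was -0.97, -1.31 and -1.92 with paraoxon and -0.83, -1.24 and -1.35 with mipafox, which gave mean gaps of -1.40 and -1.14. The mean gap was -1.16 and -0.93 for FGFR3, and -0.36 and -0.16 for FGFR2. By array the FGFR3 gap was -0.2, 0.1 and 0.11 on the controls and -0.31, -0.72 and -2.45 with paraoxon. With mipafox it was -0.64, -1.15 and -1.01. The mean FGFR3 gap with paraoxon therefore rests largely on paraoxon C. SPRY4, whose probes start 3916 bases apart on the same transcript, had gaps of 0.23 and -0.12. In each of the 3 receptors the upstream probe was also the dimmer. Control means were 0 upstream and 2.73 downstream for FGFR1, -0.62 and 2.69 for FGFR2, and -2.26 and 2.79 for FGFR3. Upstream FGFR1 and FGFR3 probes also had 1 spot each against 2 downstream, and a higher share of G and C. Position and brightness can therefore not be told apart in these receptors.

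**Figure D2:**
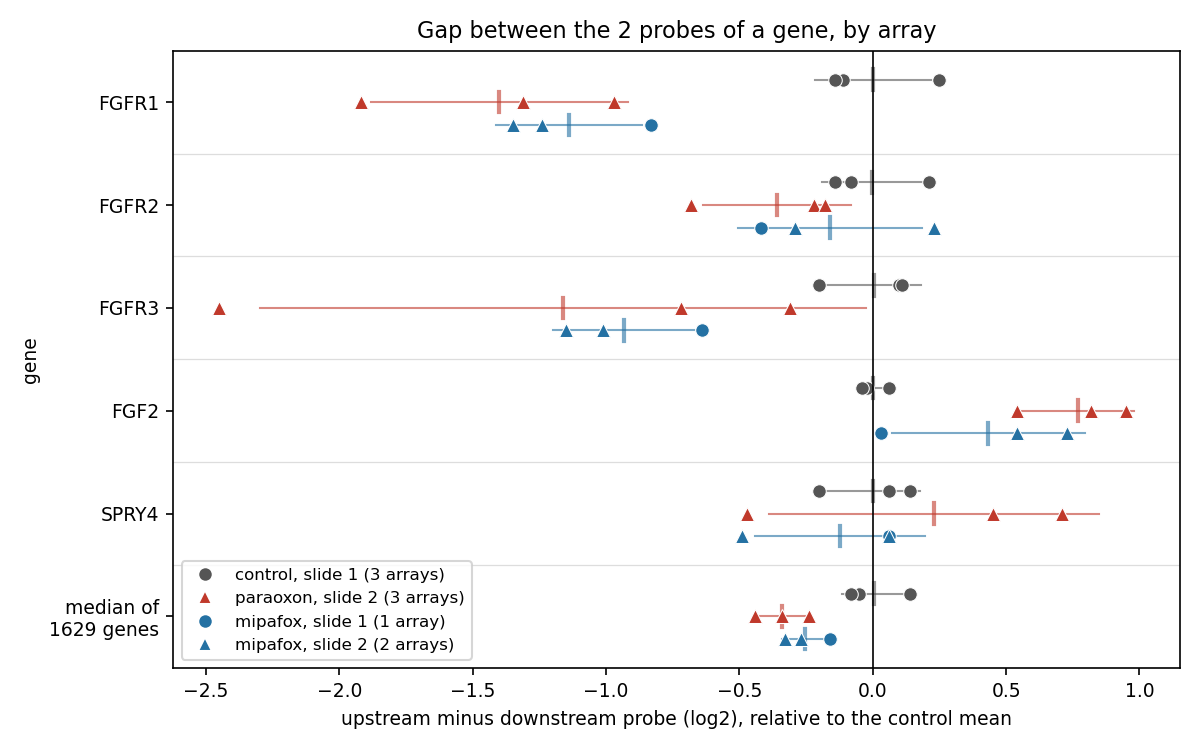
Upstream minus downstream probe on the log2 scale, relative to the mean of the control arrays (horizontal axis), for the 5 genes with 2 probes and for the median of 1629 genes (vertical axis). Colours give the treatment, shapes the slide, vertical ticks the group means and horizontal lines 1 SD to either side (n = 3 arrays). The exposed arrays lie between -1.92 and -0.83 for FGFR1, and the medians of the 1629 genes on the exposed arrays lie between -0.44 and -0.16.

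The same measure was taken over the array. In the 1629 genes with 2 tested probes at least 1000 bases apart on the same transcript, the median gap was -0.36 with paraoxon, and 81.5% of the genes were below 0. With mipafox the median was -0.26, with 77.9% of the genes below 0. By array the median gap was 0.14, -0.05 and -0.08 on the controls, -0.24, -0.34 and -0.44 with paraoxon, and -0.16, -0.27 and -0.33 with mipafox, so that paraoxon C, the array with the lowest values at the upstream FGFR3 probe and at FGFR4, also had the lowest median. Taken between the mipafox arrays of slide 2 and mipafox A, the median gap was -0.14. Probes with differences of opposite sign were found in 58.4% of these genes with paraoxon. A paraoxon gap at least as large as that of FGFR1, in either direction, was present for 24 of the 1629 genes (1.47%). FGFR1 itself was not among the 1629, since the files give the positions of its probes on different transcripts. When every gene having several tested probes was taken, 4024 in number and FGFR1 included, 40 had such a gap (0.994%). Because FGFR1 was chosen for the opposite movement of its probes, these shares follow from that choice and are no test. The gap of FGFR2 was at the median of the 1629 genes with paraoxon. The part of this shift in the receptor values was not tested.

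**Figure D3:**
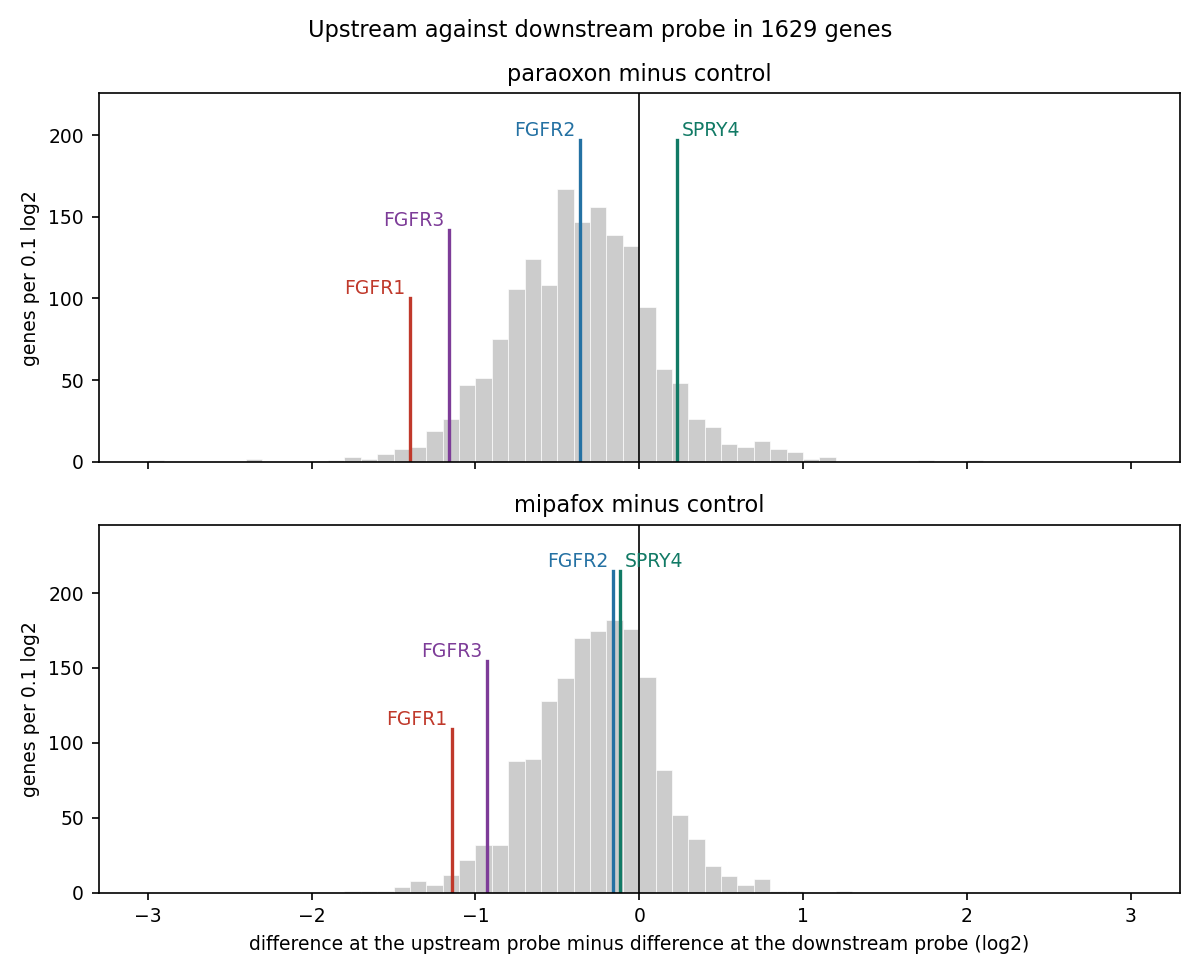
Number of genes (vertical axis) by the difference from control at the upstream probe minus that at the downstream probe (horizontal axis, log2) in 1629 genes with probes at least 1000 bases apart on the same transcript, for paraoxon and mipafox, with values beyond -3 or 3 in the end bins. The lines mark FGFR1, whose probe positions are given on different transcripts, and FGFR2, FGFR3 and SPRY4; the bulk of the genes lies below 0 and FGFR1 and FGFR3 lie in the lower tail.

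Of the ligands, FGF2 had a higher signal with paraoxon at 1 of its 2 overlapping probes. The probe A_33_P3379886 read -3.85, -3.86 and -4.18 on the control arrays and -3.05, -3.07 and -3.07 with paraoxon, and the groups did not overlap. With mipafox it read -3.71, -2.84 and -3.89, of which only mipafox B was far above the controls. The difference was 0.90 (SE 0.25), 1.87-fold higher, with paraoxon and 0.48 (SE 0.25) with mipafox, which was 0.16 without mipafox B. The neighbouring probe A_33_P3419696, which differs by the 14 bases printed above, ranged from -2.83 to -2.53 in control, from -2.71 to -2.29 with paraoxon and from -3.12 to -2.26 with mipafox, with differences of 0.13 (SE 0.23) and 0.05 (SE 0.23). The gap between these probes separated the arrays by slide. On slide 2 it was 0.82, 0.95 and 0.54 with paraoxon and 0.73 and 0.54 for mipafox B and C. It was 0.03 for mipafox A, within the control range of -0.04 to 0.06 on slide 1. The paraoxon difference at A_33_P3379886 was 0.51 with normexp background correction and 0.56 (SE 0.45) with slide as a block.

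FGF4, a ligand made by embryonal carcinoma and other pluripotent cells, was dim, with processed signals between 9.13 and 27.9. It read -5.16, -5.78 and -6.54 in control, -6.28, -6.76 and -5.64 with paraoxon, and -5.09, -5.64 and -7.11 with mipafox. The arrays of each group spread widely, and the differences of -0.40 (95% interval -1.60 to 0.80) and -0.12 (-1.32 to 1.08) were smaller than that spread. Leaving out single control or paraoxon arrays moved the paraoxon difference between -0.76 (without control C) and -0.07 (without control A). With slide as a block it was 0.88, and with normexp background correction the mipafox difference was 0.14. FGF13 (chrX:137713888-137713947, minus strand) ranged from -1.10 to -0.61 over the 9 arrays. Its groups overlapped with paraoxon and with mipafox, and its differences were 0.08 (95% interval -0.25 to 0.41) and 0.19 (-0.14 to 0.52).

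SPRY1 (chr4:124324494-124324553, plus strand) was the Sprouty gene with the largest difference with mipafox. It read -2.18, -1.96 and -2.23 on the control arrays, -1.74, -2.07 and -1.37 with paraoxon, and -1.93, -1.49 and -1.52 with mipafox. All 3 mipafox arrays were above the controls, mipafox A only just, while paraoxon B fell among them. The difference was 0.40 (SE 0.21) with paraoxon and 0.48 (SE 0.21) with mipafox, and with slide as a block it was -0.03 (SE 0.34) and 0.19 (SE 0.27). Without paraoxon C the paraoxon difference was 0.22.

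SPRY2 (chr13:80910622-80910681, minus strand) read -1.69, -1.31 and -1.57 in control and lay between -1.79 and -1.49 on the 6 exposed arrays. Its differences of -0.15 (95% interval -0.47 to 0.17) and 0.00 (-0.32 to 0.32) were within the spread of the controls. SPRY4 was dim at both probes, with processed signals between 13.1 and 42.7. At the probe A_24_P269062 (chr5:141690571-141690630) the differences were -0.44 (SE 0.23) and -0.04 (SE 0.23), and the paraoxon value was -0.13 with normexp background correction and -0.23 without paraoxon C. At the coding probe A_33_P3338423 they were -0.21 (SE 0.19) and -0.17 (SE 0.19). The mipafox values were 0.11 and 0.02 with normexp background correction, and the groups of SPRY4 overlapped at both probes.

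No probe of the 10 genes passed the limits for a call (an adjusted p below 0.05 with a log2 difference beyond 1) when limma was fitted over all 29134 probes, and 0% of all probes were called with paraoxon and 0% with mipafox. The smallest adjusted p of any probe was 0.0608 with paraoxon and 0.156 with mipafox. At an unadjusted p under 0.05 there were 5 of the 15 probes with paraoxon, against 13.3% of all probes, and 3 of 15 with mipafox, against 6.96% of all probes. Without the FGFR1 probes these counts were 3 of 13 and 1 of 13. The 3 exposed arrays were all above or all below the 3 controls at 5 of the 15 probes with paraoxon, where the share of all probes was 23.4%, and at 5 of 15 with mipafox, where it was 11.8%. Without the FGFR1 probes the count of probes that did not overlap was 3 of 13 in each comparison. The FGFR1 probes were chosen on these contrasts, and the other members with earlier results of these data known. The counts, also those without FGFR1, therefore describe the set and are no test of it. The median difference of the 15 probes was -0.15 with paraoxon and 0.00 with mipafox, and that of all probes was 0.01 and 0.00. In RNA of whole cultures, fewer cells of a type and less RNA per cell cannot be told apart.

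Of 95 other genes of the pathway, 80 were measured by 100 tested probes. No probe was called in either comparison. At an unadjusted p under 0.05 there were 8 probes with paraoxon, 1 higher and 7 lower, and 4 with mipafox, 1 higher and 3 lower. These shares of the 100 probes were below the 13.3% and 6.96% over all probes. The median difference of the 100 probes was -0.03 with either compound. By role, the paraoxon count was 3 of 23 probes for heparan sulfate proteins and enzymes, 3 of 28 for adaptors and kinases, 1 of 7 for co-receptors and receptor-like proteins and 1 of 19 for targets. It was 0 of 10 for other ligands and 0 of 13 for other feedback genes.

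HS6ST2, a sulfotransferase that modifies the heparan sulfate chains to which FGFs bind, was lower on every exposed array at 1 of its 2 probes. The probe A_33_P3290714 read -2.43, -2.29 and -2.49 in control, -3.70, -3.45 and -3.73 with paraoxon, and -3, -3.99 and -3.28 with mipafox. The differences of -1.23 (SE 0.24, adjusted p = 0.0783 in limma) and -1.02 (SE 0.24, adjusted p = 0.360) did not pass the threshold after adjustment over all probes, and with slide as a block the paraoxon difference was -0.59 (SE 0.35). The other HS6ST2 probe, A_24_P105191, had a control mean of 1.27, and its differences were 0.02 (SE 0.20) and -0.17 (SE 0.20), with overlapping groups. SDC3, a heparan sulfate proteoglycan of neural cells, had differences of -0.77 (SE 0.30) and -0.49 (SE 0.30) at the probe A_33_P3241884, whose control mean was -4.68. At A_23_P74887 they were -0.60 (SE 0.23) and -0.12 (SE 0.23). With slide as a block the paraoxon differences were -0.42 (SE 0.55) at A_33_P3241884 and -0.24 (SE 0.41) at A_23_P74887.

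Of the adaptors, PTPN11, the phosphatase SHP2 that links the receptors to RAS, was read by 2 probes. The probe A_23_P105436 read -1.61, -1.75 and -1.70 in control, -2.40, -2.35 and -2.71 with paraoxon, and -2.04, -2.78 and -2.82 with mipafox. The exposed arrays were all below the controls at this probe, and mipafox A, on the slide of the controls, was the nearest to them. The differences were -0.80 (SE 0.22, adjusted p = 0.155 in limma) and -0.86 (SE 0.22, adjusted p = 0.419), and with slide as a block the paraoxon value was -0.04 (SE 0.25). The other PTPN11 probe, A_23_P99027, with a control mean of 2.17, overlapped between groups and had differences of 0.20 (SE 0.22) and -0.04 (SE 0.22). FRS3, a docking protein of the receptors, was dim, with a control mean of -6.33, and differed by 0.82 (SE 0.29) with either compound. Mipafox A, on the slide of the controls, read -6.24, within the control range of -6.41 to -6.21. With slide as a block the FRS3 differences were -0.28 (SE 0.30) with paraoxon and 0.08 (SE 0.24) with mipafox. NF1, a RAS inhibitor, had differences of -0.31 (SE 0.14) and -0.53 (SE 0.14) at the probe A_24_P1919. Its other probes gave -0.34 (SE 0.16) and -0.12 (SE 0.16) at A_33_P3240348, and 0.37 (SE 0.25) and 0.35 (SE 0.25) at A_24_P917026. FLRT2, a membrane protein that binds FGF receptors, was well above background on 6 of 9 arrays and differed by 2.04 (SE 0.93) with paraoxon. Paraoxon C at -2.51 was alone far above the other arrays, which lay between -7.64 and -5.96.

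DUSP6, the MAP kinase phosphatase that FGF signalling induces in many tissues, differed little between groups. It lay between 3.47 and 3.69 on the 9 arrays, with differences of -0.02 (95% interval -0.31 to 0.27) and 0.02 (-0.27 to 0.31). SPRED1 and IL17RD, other inhibitors of the pathway, had differences of -0.01 (SE 0.15) and 0.18 (SE 0.17) with paraoxon and of -0.26 (SE 0.15) and 0.08 (SE 0.17) with mipafox. ETV4, an ETS factor downstream of FGF receptors, read -2.09, -2.21 and -2.32 in control and -2.51, -2.79 and -3.38 with paraoxon, a difference of -0.69 (SE 0.23, adjusted p = 0.243 in limma). Paraoxon C was the lowest array here too, and with slide as a block the value was -0.21 (SE 0.39). The mipafox difference was -0.25 (SE 0.23). For the related factor ETV5 the differences were -0.09 (SE 0.55) and 0.07 (SE 0.55).

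**Figure D4:**
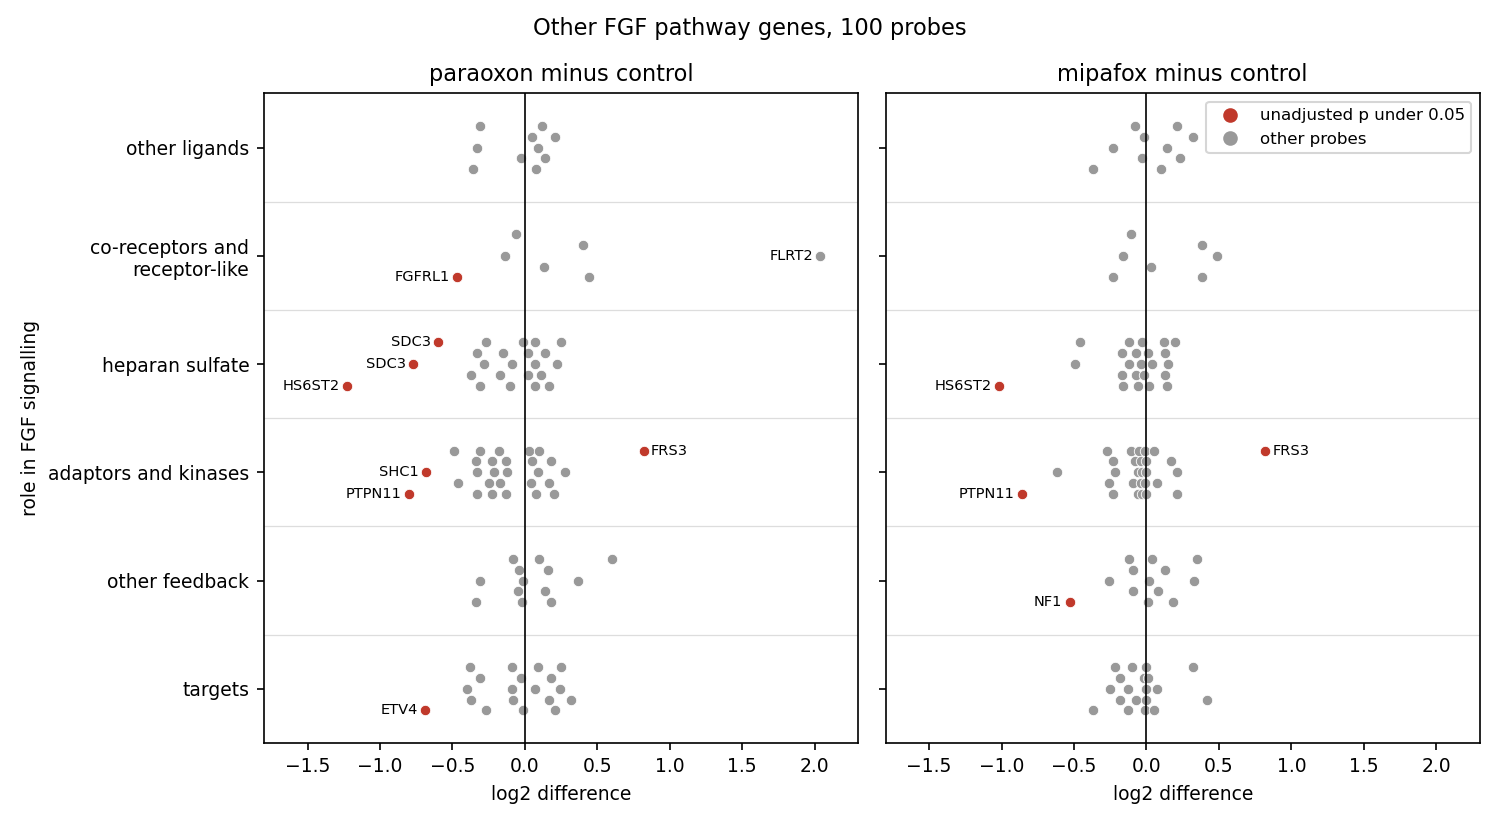
Log2 difference from control (horizontal axis) of the 100 tested probes of other FGF pathway genes, by role (vertical axis), for paraoxon and mipafox. Each point is a probe, red points have an unadjusted p under 0.05, and vertical positions within a role only separate the points; most probes lie near 0, with HS6ST2 lowest at -1.23 and -1.02.

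Across the 9 arrays, which share treatments and slides, the genes with values most like the upstream FGFR1 probe were chosen by Pearson's r among 16229 genes. They were GNA12 (r = 0.985), a G protein subunit, ARSK (0.981), a sulfatase, ADAMTS12 (0.976), a metalloprotease, IPO7 (0.972), a nuclear import receptor, and ZNF354C (0.969), a zinc finger protein. Their paraoxon differences were -0.83 for GNA12, -0.39 for ARSK, -1.09 for ADAMTS12, -1.13 for IPO7 and -1.07 for ZNF354C. The genes most like the downstream probe were PML (0.975), which organises nuclear bodies, NCOA6 (0.967), a coactivator, HEATR1 (0.967), a nucleolar protein, AP3M2 (0.966), an adaptor subunit, and TUBA3C (0.964), an alpha tubulin. Their paraoxon differences lay between 0.16 for NCOA6 and 0.43 for PML, below the 0.45 of the FGFR1 probe. The 2 FGFR1 probes themselves had an r of -0.91 over the same arrays. Since the genes were chosen on these arrays, the direction of their differences follows from the choice. Likewise, the negative r restates the opposite movement for which FGFR1 was chosen.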

How the data were processed

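RNA was labelled with the Quick Amp kit, which primes from the poly(A) tail, and hybridized to single-colour Agilent arrays. The processed signal that the authors deposited is an intensity on a linear scale from Feature Extraction 10.5.1.1, and their own log2 values, deposited as a table, served as an alternative. Here the processed signal was put on a log2 scale relative to its 75th percentile on the same array. Control and outlier spots were dropped and a probe's spots averaged. A probe was tested if it was well above background throughout 1 treatment or more and had at least 2 values in each, which left 29134 of 42405. Testing was by limma 3.58.1 (R 4.3.3) with a mean for each treatment, over the 9 arrays together, and p-values were adjusted by Benjamini-Hochberg. A probe was called when the adjusted p was below 0.05 and the log2 difference beyond 1. Precision is limited by the number of arrays. The fits were tested on simulated data.

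Every probe of the 10 genes was kept, with hg19 positions and sequences from the array files. Of the other pathway genes, those named were DUSP6, ETV4, ETV5, SPRED1 and IL17RD, any called probe and the 5 probes with the largest absolute difference in each comparison, of which 1 is not reported here. The figure of pathway genes also names SHC1, FGFRL1 and a second SDC3 probe, chosen after their values were seen. The members and lists were chosen with earlier results of these data known. The alternatives changed the normalization, the background correction, the values used, the filter, blocks, arrays in the fit, weights, the variance model and outlier spots. Figures were drawn with matplotlib 3.10.9.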

Additional observations from a re-analysis of the deposited data

How the results depend on the processing

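The upstream FGFR1 probe stayed below and the downstream probe above control under all alternatives run. FGFR1 was chosen for these directions, and several alternatives, named below, cannot change a difference, so this is no measure of stability. The downstream difference was 0.19 (SE 0.24) with paraoxon and 0.30 (SE 0.19) with mipafox with slide as a block. The upstream paraoxon difference was -0.66 with array weights, -1.02 with normexp background correction, -1.05 in the authors' values and -1.12 without paraoxon A. The count of called probes with paraoxon was 1 with slide as a block, 276 with only the control and paraoxon arrays and 671 with array weights, and it ranged from 0 to 275 when an array was left out (275 without mipafox A, 77 without mipafox B and 1 without mipafox C). With mipafox it was 6 with slide as a block and 800 with array weights, and ranged from 0 to 78 when an array was left out (78 without mipafox A). The count of pathway probes with an unadjusted p under 0.05 was 15 with paraoxon and 9 with mipafox in the authors' values, and 16 and 28 with array weights. With an array left out it ranged from 4 (without paraoxon C) to 12 (without paraoxon A) with paraoxon and from 3 to 8 with mipafox (8 without mipafox C and 7 without control A). The cause of these shifts was not tested. Of 520 values of the 13 other probes under alternatives, 500 moved by less than the spread between arrays and 20 by more. Some alternatives cannot change a difference, such as other filters, the replicate block or omitting an array of the other compound. The count of 500 is therefore no measure of stability. With the replicate block the letters A, B and C entered as pairs, and 0 probes were called in either comparison, as without it, with 10 pathway probes at an unadjusted p under 0.05 with paraoxon and 5 with mipafox. Deviations of arrays with the same letter correlated between -0.598 and 0.567, and those with different letters between -0.588 and 0.661. These values gave no sign that the letters pair the arrays, but with 3 arrays per group they cannot exclude it. All 15 probes were well above background on all 9 arrays.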
